A study of Mus musculus with 24 samples.

Results

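The 4 Egr genes (Egr1, Egr2, Egr3 and Egr4) and the 3 Nr4a genes (Nr4a1, Nr4a2 and Nr4a3) were examined in the medial prefrontal cortex (mPFC) of mice exposed to morphine around birth. The genes were taken by symbol from the 2 tables of normalized counts, one for each sex, and all 7 were found among the 24972 genes listed. All 7 were listed above 0 in every library and passed the filter on low values. RNA of the whole mPFC was sequenced at P21 from 24 libraries, 6 for each combination of sex and treatment (MO, morphine, and SAL, saline). MO offspring came from C57BL/6J dams that received daily subcutaneous morphine at 10 mg/kg, begun before gestation and kept up until P21, and SAL offspring came from dams given saline on the same schedule. All offspring were wild-type B6D2F1/J hybrids sired by DBA/2J males, so the groups carried no transgene and differed by the treatment of the dam. Exposure therefore ran through gestation and nursing, and the design holds no group exposed in only one of these periods. According to the methods, each litter gave 1 offspring of each sex. Male and female libraries may then be littermates, and which ones is not given here, so that the models over both sexes treated the 24 libraries as independent.

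Egr and Nr4a genes are immediate early genes. In neurons, synaptic activity and calcium entry act through kinases such as ERK and CaMKIV on transcription factors that are already present, chiefly CREB and the SRF and ELK proteins, and these switch on early genes within minutes without new protein synthesis. Egr proteins are zinc-finger factors that bind GC-rich sites, are held in check by the NAB corepressors, and are used in the cortex as markers of recent activity and as factors in plasticity and memory. Nr4a proteins are orphan nuclear receptors that bind DNA as single molecules or with RXR partners. Nr4a2 (Nurr1) is also known as a stable marker of certain neurons, among them midbrain dopamine neurons and cells of the claustrum and layer 6b, where its level does not need recent activity.

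The windows upstream of Egr2, Egr4 and Nr4a1 are shown because these genes, like Egr1 and Nr4a3, had low values in the same libraries, as described further on, and because their start sites were the same in RefSeq and GENCODE. Each is the 250 bases before the start site in RefSeq (GRCm38.p6, the build also called mm10), written 5′ to 3′ on the strand of the gene, with motif matches in capitals. The motifs were the short cyclic AMP response element (CRE, TGACG or its complement CGTCA), the palindromic CRE (TGACG continued by TCA), the CArG box bound by SRF (CC, any 6 bases of A or T, then GG), the Egr site (GCG continued by TGGGCG or GGGGCG) and the Nr4a site NBRE (AAAGG continued by TCA), each searched on both strands.
Egr2, chr10:67537619-67537868, + strand: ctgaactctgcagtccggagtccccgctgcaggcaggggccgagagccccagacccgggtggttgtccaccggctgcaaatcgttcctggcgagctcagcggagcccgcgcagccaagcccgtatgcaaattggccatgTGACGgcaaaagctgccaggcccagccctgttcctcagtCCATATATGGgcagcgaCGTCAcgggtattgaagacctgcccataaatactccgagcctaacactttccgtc
Egr4, chr6:85513590-85513839, − strand: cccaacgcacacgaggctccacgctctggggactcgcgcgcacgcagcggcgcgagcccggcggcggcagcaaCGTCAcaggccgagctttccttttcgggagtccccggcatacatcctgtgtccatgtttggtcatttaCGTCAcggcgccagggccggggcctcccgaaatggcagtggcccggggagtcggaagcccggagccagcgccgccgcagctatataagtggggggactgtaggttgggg
Nr4a1, chr15:101266596-101266845, + strand: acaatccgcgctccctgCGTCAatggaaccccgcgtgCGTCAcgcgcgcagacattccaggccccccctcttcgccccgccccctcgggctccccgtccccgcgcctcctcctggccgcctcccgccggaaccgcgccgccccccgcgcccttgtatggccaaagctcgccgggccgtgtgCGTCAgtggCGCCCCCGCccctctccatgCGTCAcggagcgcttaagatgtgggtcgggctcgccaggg
The Egr2 window held 2 short CREs, at -111 to -107 and -55 to -51 from the start site, and 1 CArG box at -72 to -63. The Egr4 window held 2 short CREs, at -177 to -173 and -109 to -105. The Nr4a1 window held 4 short CREs and 1 Egr site, the last at -60 to -52. A short CRE occurred in 17.8% of the 32851 windows of the same length, a CArG box in 1.47%, an Egr site in 3.06%, a palindromic CRE in 1.55% and an NBRE in 1.34%. These matches describe the letters of the windows and were not measured as bound sites. Windows of the other 4 genes are not shown.

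The normalized values summed to between 14728966 and 15966593 per library. They were already scaled between libraries, so that these sums do not measure depth. Taking the typical lowest value above 0 as 1 read, the libraries held about 13433368 to 20122031 reads, with a median of 15178595. The suffix combined marked 11 libraries, 3 of the male ones (1 SAL, 2 MO) and 8 of the female ones (4 SAL, 4 MO). It may stand for merged sequencing runs, but what was combined is not given. One female MO library, PFC1, stood apart from the other 23. It had the highest summed level of its table for markers of striatal projection neurons, astrocytes, oligodendrocytes, microglia, endothelium, neutrophils, erythroid cells, and claustrum and layer 6b (4999 normalized counts), and the lowest for markers of deep cortical layers (5698) and inhibitory neurons (9774, the next lowest 11256). Its striatal markers summed to 9813 normalized counts against 3471 to 4653 in the other 11 female libraries, and the female and both-sex comparisons, the female correlations and the likenesses are given with and without it. The male SAL library PFC16 also had raised striatal markers, at 8462 normalized counts. In every group the excitatory neuron markers (Slc17a7, Camk2a and others) summed to between 105105 and 127657 normalized counts, and no marker of that list was at 0.

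Egr1 had the highest level of the family per length of transcript. In male SAL libraries it averaged 2533 normalized counts per kb, the lowest library at 2162 and the highest at 2875. It was followed by Nr4a1 (870 per kb, 703 to 961), Egr3 (679 per kb, 561 to 760), Egr4 (482 per kb, 365 to 570), Nr4a3 (234 per kb, 209 to 268), Egr2 (129 per kb, 86.7 to 160) and Nr4a2 (49.9 per kb, 36.5 to 56.5). The ranges of Nr4a1 and Egr3 overlapped, as did those of Egr3 and Egr4, and the other neighbours in this order were apart. Lengths were those of the longest GENCODE M21 transcript linked to RefSeq. With the shorter linked transcript of Egr3 its level would be 1774 per kb, above Nr4a1. In female SAL libraries the order of the means was the same, from 2330 per kb for Egr1 to 50.7 per kb for Nr4a2.

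The genes lie on different chromosomes. On GRCm38 the transcripts used were at chr18:34861207-34864956 (Egr1, + strand), chr10:67537869-67542188 (Egr2, + strand), chr14:70077314-70082550 (Egr3, + strand), chr6:85511121-85513589 (Egr4, − strand), chr15:101266846-101274795 (Nr4a1, + strand), chr2:57106830-57115038 (Nr4a2, − strand) and chr4:48045153-48086445 (Nr4a3, + strand). None of the 85-base stretches of their transcripts was shared with another gene, so reads of 1 member should not have been counted for another.

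**Figure D1:**
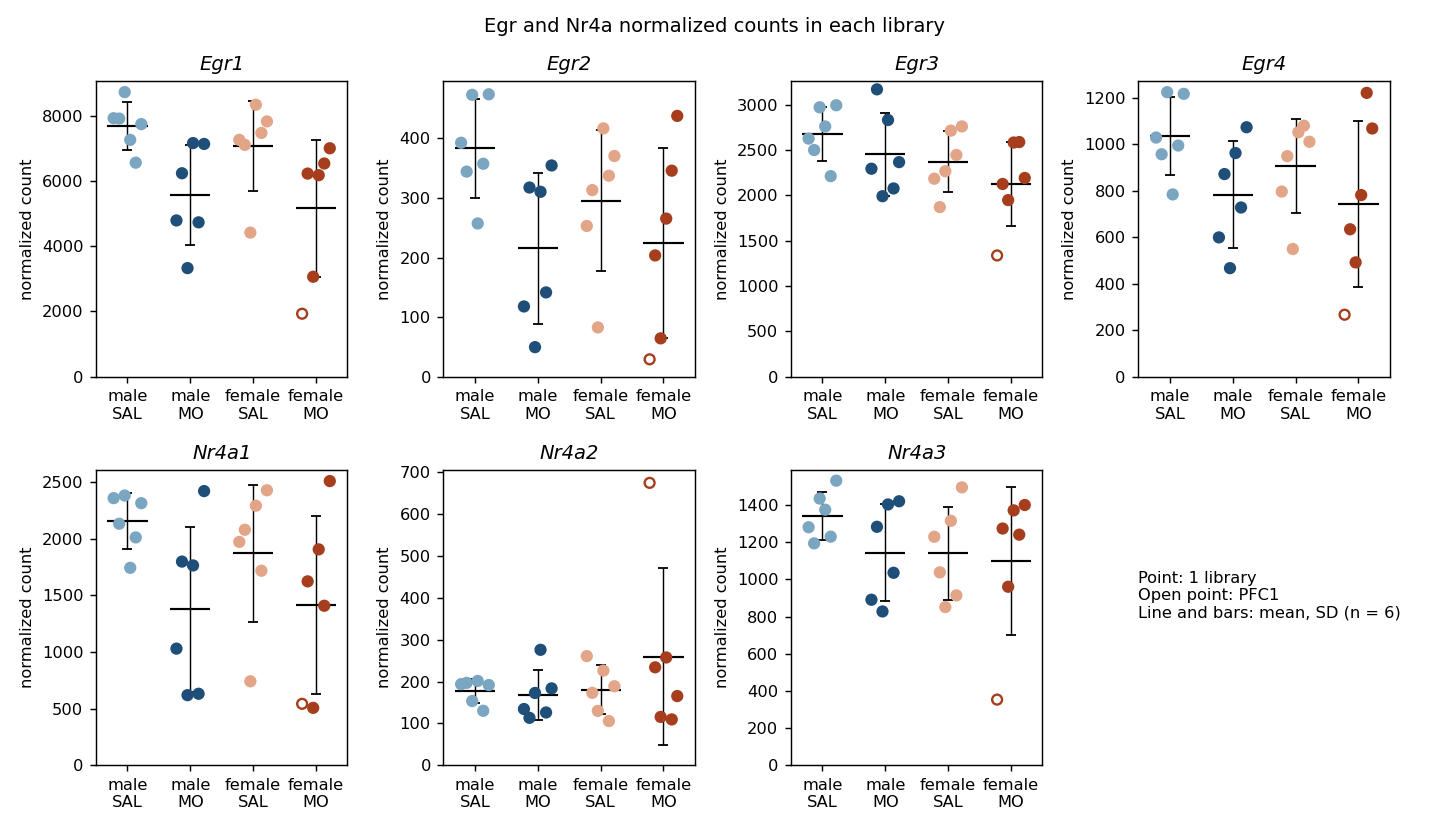
Normalized counts of the 7 genes (y axis, from 0) in the 6 libraries of each group, with each point 1 library, the open point PFC1, and lines and bars the mean and SD. In males 3 of the 6 MO libraries sit below all SAL libraries for Egr2, Egr4, Nr4a1 and Nr4a3, while the other MO libraries lie within the SAL range apart from PFC19, which is above it for Nr4a1.

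The first comparison asked whether maternal morphine changed the level of these genes in male offspring. Egr2, a zinc-finger factor known for its role in hindbrain patterning and Schwann cell myelination, had the largest difference. Its values in male SAL libraries were 257 at the lowest, 375 at the median and 474 at the highest, and in male MO libraries 49.6, 226 and 355. MO libraries PFC13, PFC10 and PFC17 (49.6, 118 and 141) lay below every SAL library, and the other 3 lay within the SAL range. The log2 fold change was -1.09 (SE 0.36, 95% interval -1.85 to -0.33, limma p = 0.00743, exact permutation p = 0.0325).

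Nr4a1 (Nur77), an orphan receptor induced in neurons by calcium entry, had values of 1742, 2222 and 2380 in male SAL libraries (lowest, median and highest) and of 619, 1397 and 2419 in male MO libraries. PFC13, PFC17 and PFC10 were again below all SAL libraries, whereas PFC19 was the highest of all 12. The log2 fold change was -0.83 (SE 0.27, 95% interval -1.39 to -0.27, limma p = 0.00623, exact permutation p = 0.0455). Egr1 (Zif268), the member most used as an activity marker, ranged from 6563 to 8727 around a median of 7831 in male SAL libraries and from 3330 to 7165 around 5516 in male MO libraries. For Egr1, 4 of 6 MO libraries lay below the lowest SAL library and all 6 below the SAL mean. Its log2 fold change was -0.51 (SE 0.14, 95% interval -0.81 to -0.21, limma p = 0.00228, exact permutation p = 0.0108).

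Egr4, whose product is the Egr family member that lacks a NAB-binding domain, had male SAL values of 785, 1012 and 1225 and male MO values of 467, 800 and 1074. Here 3 MO libraries were below all SAL libraries, and the log2 fold change was -0.44 (SE 0.16, limma p = 0.0146, exact permutation p = 0.0606). Nr4a3 (Nor1) had male SAL values of 1194, 1328 and 1531 and male MO values of 828, 1159 and 1420. Its log2 fold change was -0.26 (SE 0.12, limma p = 0.0441, exact permutation p = 0.130). For Egr4 and Nr4a3 the permutation test thus missed the threshold that the model passed.

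The remaining members, Egr3 and Nr4a2, did not pass either test in males. Egr3, which acts downstream of calcineurin and neuregulin signals, ranged from 2212 to 2993 in SAL and from 1990 to 3169 in MO libraries (log2 fold change -0.14, 95% interval -0.35 to 0.07, exact permutation p = 0.294). Nr4a2 ranged from 130 to 201 in SAL and from 113 to 276 in MO libraries (log2 fold change -0.13, 95% interval -0.50 to 0.23, exact permutation p = 0.550).

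In males, then, 5 of the 7 genes were lower at an unadjusted p under 0.05, where 1.52% of the 16662 genes tested were. Members other than Nr4a2 varied together across libraries, as described further on, so counts of members in any comparison are not separate observations. No member passed after Benjamini-Hochberg adjustment over all genes (limma adjusted p = 1.00 for each), and 0.00% of all genes did. All 7 estimates were below 0, with a median of -0.44 against -0.00 over all genes. MO and SAL libraries overlapped for every member, and libraries that did not overlap were found for 0.0600% of genes. In the 9 male libraries without the suffix, the log2 fold changes were -0.51 for Egr1, -1.15 for Egr2, -0.41 for Egr4, -0.89 for Nr4a1 and -0.24 for Nr4a3, and 3 of these (Egr1, Egr2 and Nr4a1) passed the unadjusted threshold, where 8.25% of genes passed in either direction. The 3 male libraries with the suffix hold 1 SAL library and were not compared.

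**Figure D2:**
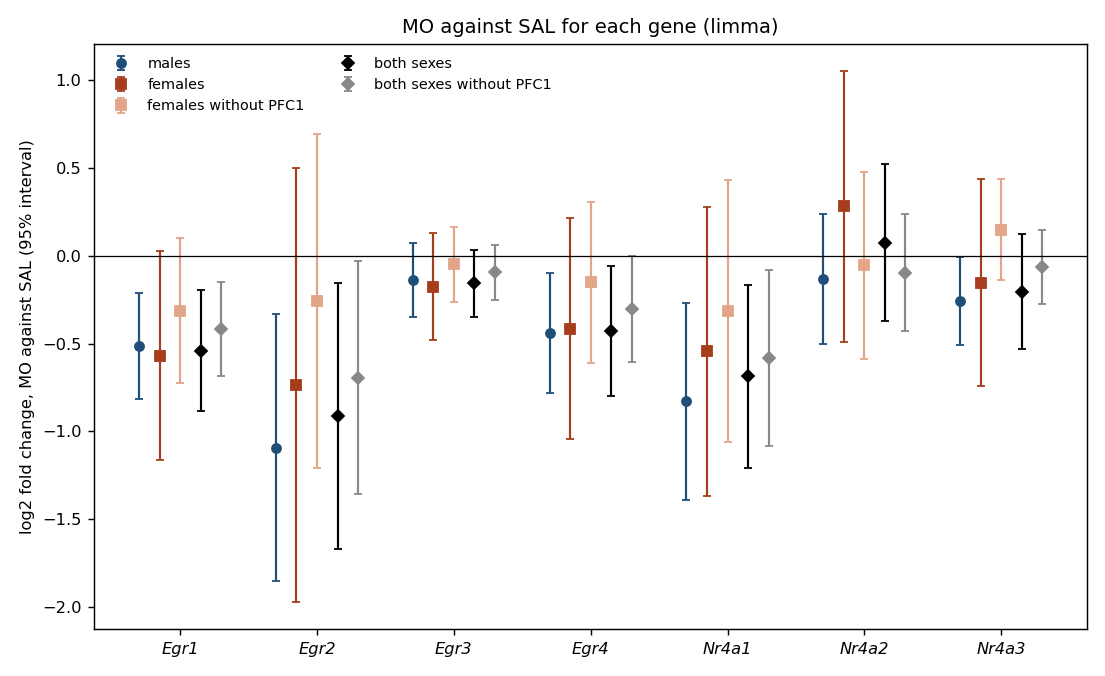
Log2 fold change of MO against SAL for each gene from limma on log2(value + 1), with 95% intervals, in males, in females with and without PFC1, and over both sexes with and without PFC1. The male intervals of Egr1, Egr2, Egr4, Nr4a1 and Nr4a3 lie below 0, and all 7 female intervals include 0.

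In females the same question gave wider errors. Egr1 had values of 4418, 7370 and 8340 in female SAL libraries (lowest, median and highest) and of 1932, 6205 and 7006 in female MO libraries. All 6 MO libraries were below the SAL mean, and PFC1 (1932) and PFC5 (3066) were below all SAL libraries. The log2 fold change was -0.57 (SE 0.28, 95% interval -1.16 to 0.03, limma p = 0.0599, exact permutation p = 0.145). Without PFC1 it was -0.31 (95% interval -0.73 to 0.10).

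Egr2 in females spanned 82.7 to 417 in SAL and 29.2 to 438 in MO libraries, with medians of 325 and 234. It was low in PFC1 (29.2), PFC5 (64.3) and the SAL library PFC6 (82.7), and MO library PFC23 held its highest value. The log2 fold change was -0.74 (SE 0.58, 95% interval -1.97 to 0.50, exact permutation p = 0.294) and -0.26 without PFC1. Nr4a1 followed the same libraries, with 508 in PFC5, 543 in PFC1 and 742 in PFC6 against 1408 to 2507 in the other 9 (log2 fold change -0.54, 95% interval -1.36 to 0.28, and -0.32 without PFC1).

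For Egr4 the female values were 550, 980 and 1081 in SAL and 267, 708 and 1222 in MO libraries (log2 fold change -0.41, 95% interval -1.05 to 0.22, and -0.15 without PFC1). Egr3 had 1870 to 2760 in SAL and 1337 to 2587 in MO libraries (log2 fold change -0.18, 95% interval -0.48 to 0.13, and -0.05 without PFC1). Nr4a3 had 851 to 1495 in SAL and 354 to 1400 in MO libraries. Its value of 354 in PFC1 stood alone, and the log2 fold change turned from -0.15 (95% interval -0.74 to 0.44) to 0.15 (95% interval -0.14 to 0.44) when that library was left out.

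Nr4a2 went the other way in PFC1. That library held 674 normalized counts, while the other 5 female MO libraries held 110 to 257 and the 6 SAL libraries 106 to 261. The log2 fold change was 0.28 (95% interval -0.49 to 1.05) with PFC1 and -0.06 (95% interval -0.59 to 0.48) without it.

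In females 0 of 7 members passed an unadjusted p under 0.05 in limma, where 1.12% of the 16717 genes tested were lower and 1.81% higher, and the exact permutation test passed 0 of 7 as well. After adjustment 0.00% of genes passed. Estimates were below 0 for 6 of 7 members, with a median of -0.41 against 0.00 over all genes. Without PFC1 the median was -0.15, and 0 of 7 members passed, where 1.01% of genes were lower. Libraries that did not overlap were found for 0.132% of genes and for none of the members. In the 8 female libraries with the suffix (4 SAL, 4 MO) the log2 fold changes were -0.77 for Egr1, -1.17 for Egr2, -0.69 for Egr4 and -0.76 for Nr4a1, and Egr4 alone passed the unadjusted threshold, where 4.73% of genes did in either direction. In the 4 without it (2 SAL, 2 MO) they were -0.18, 0.14, 0.13 and -0.12, and Egr1 alone passed it, where 10.5% of genes did, a share close to 1 of 7.

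Over both sexes, with sex as a term, 4 of the 7 genes were lower at an unadjusted p under 0.05, where 2.21% of the 17303 genes tested were and 0.00% passed after adjustment. Egr1 had a log2 fold change of -0.54 (95% interval -0.88 to -0.20, limma adjusted p = 0.847) and an exact permutation p of 0.00516 when labels were permuted within sex. Egr2 had -0.91 (exact permutation p = 0.0387), Nr4a1 -0.69 (exact permutation p = 0.0262) and Egr4 -0.43 (exact permutation p = 0.0444). Egr1 was below the SAL mean of its sex in all 12 MO libraries, Egr2 in 10, and Egr4 and Nr4a1 in 9 each.

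Without PFC1 the same 4 genes passed in limma, where 1.77% of genes were lower, at log2 fold changes of -0.42 for Egr1, -0.69 for Egr2, -0.30 for Egr4 and -0.58 for Nr4a1. The exact permutation test then kept Egr1 (p = 0.00967) and no longer passed Nr4a1 (p = 0.0568), Egr2 (p = 0.0862) or Egr4 (p = 0.0972). Egr3 (-0.16), Nr4a3 (-0.20) and Nr4a2 (0.07) did not pass over both sexes with PFC1, and Nr4a2 was at -0.10 without it. In the 13 libraries without the suffix 4 genes passed in limma, where 17.4% of genes passed in either direction, and these were Egr1 (-0.41), Egr2 (-0.75), Egr3 (-0.19) and Nr4a1 (-0.65).

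The difference between the sexes was tested directly, as the male difference minus the female one. Of the 7 genes 0 passed an unadjusted p under 0.05, where 2.10% of all genes did and 0.00% passed after adjustment. The interval for Egr1 ran from -0.65 to 0.76 around 0.06, and that for Egr2 from -1.90 to 1.19 around -0.35, on the log2 scale. The passing of 5 genes in males and of 0 in females therefore does not show that the sexes differed. Without PFC1 the Nr4a3 difference came nearest to the threshold, at -0.40 (95% interval -0.81 to 0.00), and 0 of 7 passed.

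**Figure D3:**
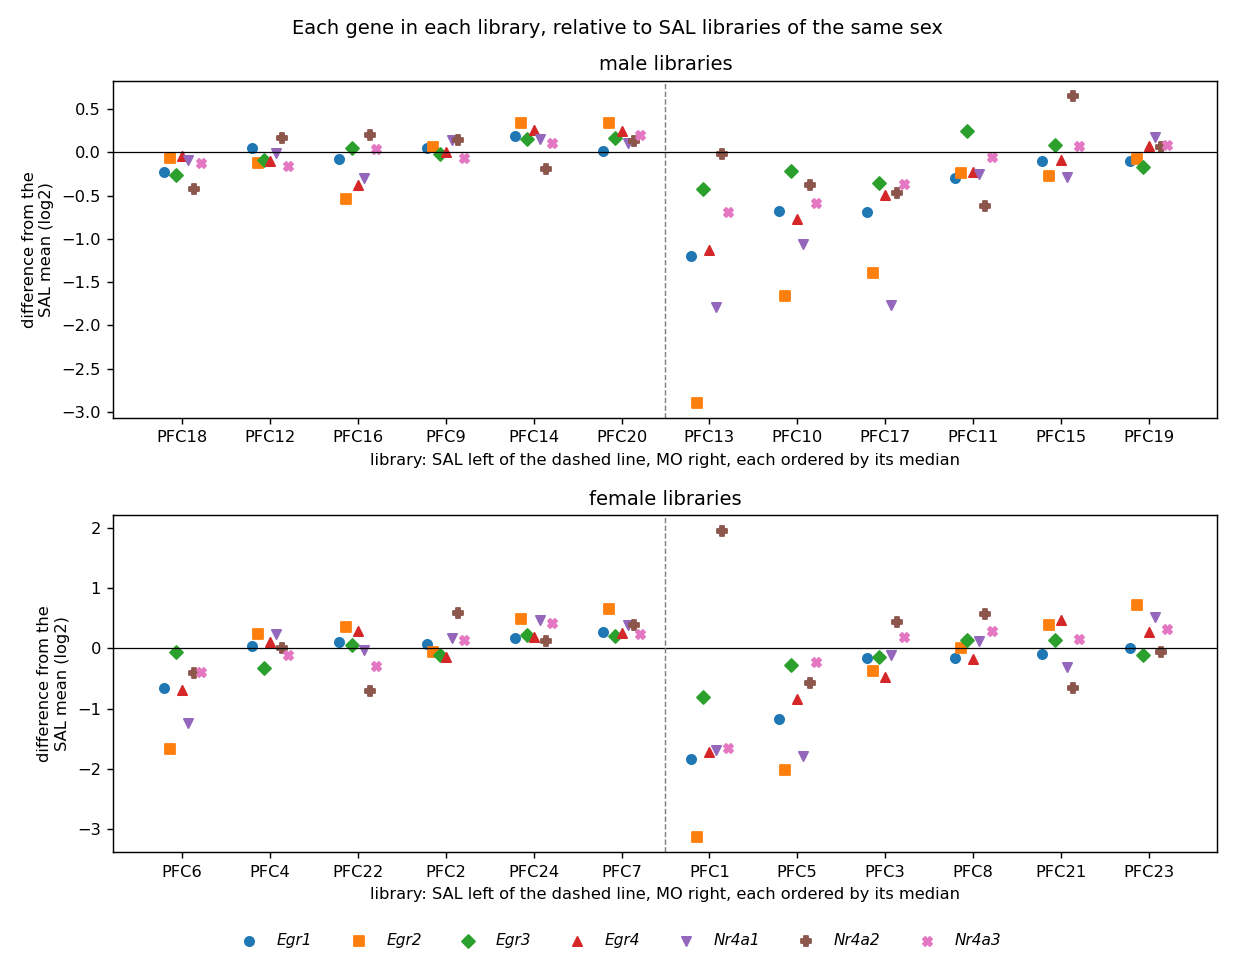
Difference of each gene from the mean of the SAL libraries of the same sex (y axis, log2), for each library (x axis, SAL left and MO right of the dashed line, ordered by the median of the 7 genes). The low values collect in PFC13, PFC10 and PFC17 among male MO libraries, in PFC1 and PFC5 among female MO libraries and in PFC6 among female SAL libraries.

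The differences were unevenly shared among MO libraries. In males PFC17 was below the lowest SAL library for all 7 genes, PFC13 for 6 and PFC10 for 5, while PFC11 was so for 2 and PFC15 and PFC19 for 0. The median of the 7 genes, set against the SAL mean, was -1.13 in PFC13, -0.68 in PFC10 and -0.49 in PFC17 on the log2 scale, and it ran from -0.24 to 0.06 in the other 3 MO libraries and from -0.12 to 0.17 in the SAL libraries. In females PFC1 was below the lowest SAL library for 6 genes and PFC5 for 4, and the other 4 MO libraries for 0. Their medians were -1.69 and -0.84, that of the SAL library PFC6 was -0.65, and those of the other 9 female libraries ran from -0.15 to 0.27. Low values thus occurred in a female SAL library as well. The striatal markers of PFC13 summed to 5907 normalized counts, the second highest of the male table after PFC16, and those of PFC17 and PFC10 to 4484 and 3789. The part of tissue composition in these differences was not tested.

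The members differed in how widely they ranged. Between the lowest and the highest library of a table Egr2 differed 9.55-fold in males and 15-fold in females, and Nr4a1 3.91-fold and 4.94-fold. Egr3 was the steadiest, at 1.59-fold in males and 2.06-fold in females. Without PFC1 the female ranges were 6.80-fold for Egr2, 4.94-fold for Nr4a1 and 1.48-fold for Egr3. The SD of log2 values in male SAL libraries was 0.14 for Egr1, 0.17 for Nr4a1 and 0.33 for Egr2, against 0.43, 0.83 and 1.10 in male MO libraries.

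**Figure D4:**
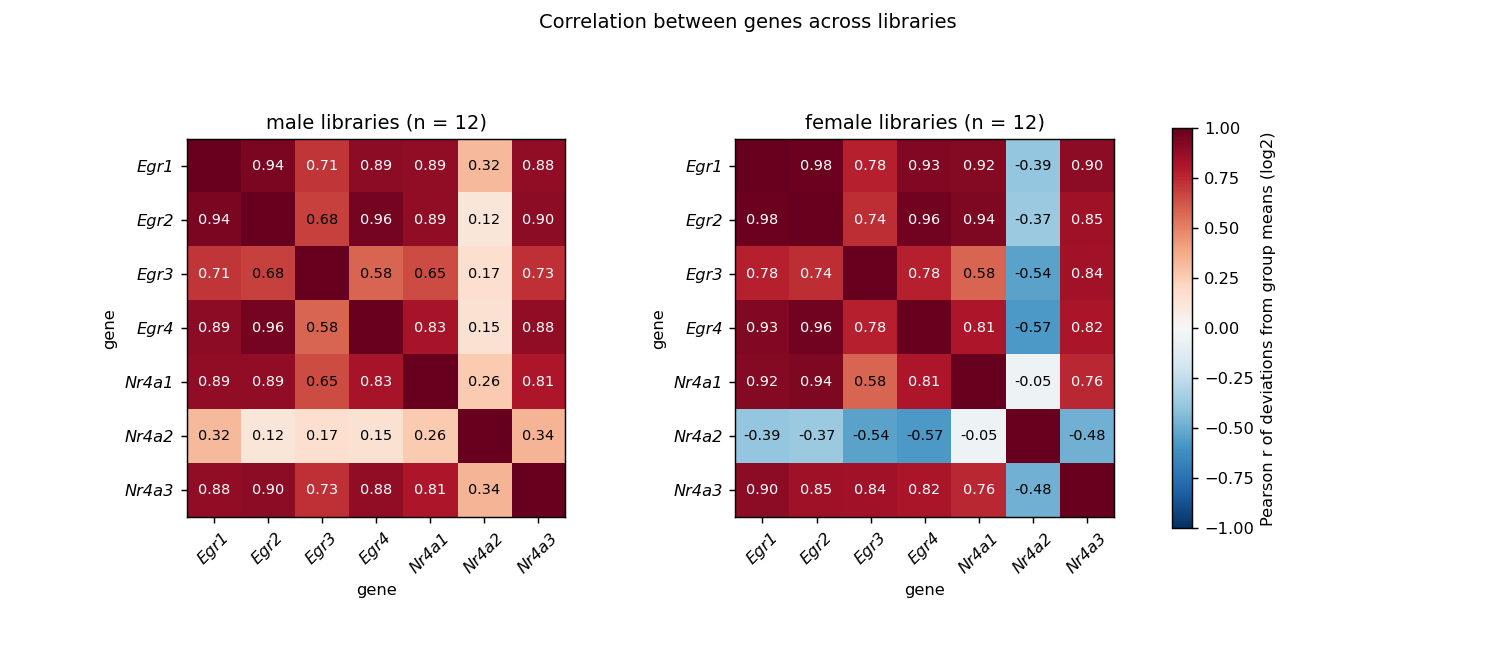
Pearson r between each pair of genes across the 12 male and the 12 female libraries, from log2(value + 1) after the group means were removed (colour scale from -1 to 1, diagonal 1 by definition). The genes other than Nr4a2 form a block with r between 0.58 and 0.98 in both tables, and Nr4a2 lies outside it at -0.57 to 0.34.

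Members other than Nr4a2 varied together across the libraries of a table, with SAL and MO libraries pooled. The spread was larger in MO libraries, so these weigh most in r. For Egr1 the SD of log2 values was 0.14 in male SAL and 0.43 in male MO, and 0.33 and 0.76 in females. Correlation within SAL or within MO libraries alone was not computed. After the group means were removed, r between Egr1 and Egr2 was 0.94 in males (Spearman rho 0.84, permutation p = 0.00203, adjusted 0.00759 by Benjamini-Hochberg for 42 pairs in the 2 tables) and 0.98 in females (rho 0.95, permutation p = 5e-05, adjusted 0.00105). Between Egr2 and Egr4 r was 0.96 in both tables (rho 0.94 and 0.90). Between Egr1 and Nr4a1, members of different families, r was 0.89 in males and 0.92 in females. Only 0.0849% of the other 11782 genes with a mean of at least 50 were as closely correlated with Egr1 in males as Nr4a1 was.

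Of the 21 pairs per table, 11 passed an adjusted p of 0.05 in males and 14 in females. The 10 pairs among Egr1, Egr2, Egr4, Nr4a1 and Nr4a3 had r from 0.81 to 0.96 in males and from 0.76 to 0.98 in females, and 9 and 10 of them passed. Egr3 was more loosely tied, with r from 0.58 to 0.73 in males and from 0.58 to 0.84 in females. The share of other genes at least as closely correlated with the first gene of a pair was also taken. For the 10 pairs it was 0.0170% to 0.407% in males and 0.0170% to 5.37% in females. For pairs of Egr3 with members other than Nr4a2 it was 0.883% to 3.10% in males and 3.99% to 25.7% in females. Those female relations of Egr3 were therefore less particular to the family.

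The number of libraries behind these relations was small. When the 2 libraries farthest from the median of the gene on the x axis were left out, 3 pairs in males and 4 in females still passed. In males the 10 pairs kept r from 0.69 to 0.92, at adjusted permutation p up to 0.119. In females PFC1 was among those left out for every pair, and r of the 5 pairs of Egr3 with members other than Nr4a2 dropped to between 0.26 and 0.49, so that those relations rested on the libraries left out. The 10 female pairs among Egr1, Egr2, Egr4, Nr4a1 and Nr4a3 then had r from 0.36 (Egr4 with Nr4a3, 0.82 before) to 0.96. Without PFC1 alone the 15 pairs that leave out Nr4a2 had r from 0.37 to 0.97. In the 9 male libraries without the suffix these 15 pairs had r from 0.61 to 0.98, and in the 8 female libraries with it from 0.56 to 0.98.

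Nr4a2 was the member least tied to the others. Its r with them ran from 0.12 to 0.34 in males and from -0.57 to -0.05 in females, with 0 of 12 pairs past the adjusted threshold. With the 2 farthest libraries left out, PFC1 among them, 5 of the 6 female values were positive, from 0.07 to 0.62, and that with Egr4 was -0.33. Without PFC1 alone the female r ran from -0.04 (Egr4) to 0.69 (Nr4a3). In males without the 2 farthest libraries r of Nr4a2 ran from 0.21 to 0.72, the latter with Egr3. Against the mean of the other 6 members Nr4a2 had a mean r of -0.09 over the 2 tables, and 63.6% of all genes were more alike to that mean. For Egr1 the same figures were 0.96 and 0.00%, and for Egr3 0.70 and 1.37%. Without PFC1 they were 0.32 and 13.4% for Nr4a2, 0.94 and 0.00% for Egr1, and 0.59 and 2.38% for Egr3.

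Likeness was taken over the 11783 genes whose mean reached 50 in both tables. Of the 10 genes most like the mean of the 7 members, 7 belonged to the lists of induced factors and effectors described further on. Those lists held 14 and 17 of the 11783 genes and were chosen with earlier results of these data known. Fos, the founding partner of the AP-1 factor, came first (mean r 0.96 over the 2 tables of 12 libraries), followed by Fosb (0.95), the Egr corepressor gene Nab2 (0.94), Ier5l (0.93), Trib1 (0.92), Klf10 (0.92), Fosl2 (0.91), Irf2bpl (0.91), Junb (0.91) and Sik1 (0.90). Fos was also the gene most like Egr1 (0.97), Egr2 (0.98) and Egr4 (0.93), while Trib1 was most like Nr4a1 (0.96) and Nab2 most like Nr4a3 (0.97). After Fos, Egr1 was most like Nab2 and Fosb, Egr2 most like Junb and Nab2, and Egr4 most like Fam43b and Irf2bpl. Nr4a1 was followed by Junb and Fos, and Nr4a3 by Gpr3 and Irf2bpl.

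Egr3 and Nr4a2 had other neighbours. Egr3 was most like Tet3 (0.89), which encodes an enzyme that oxidizes methylated cytosine, Dlc1 (0.89) and the insulin receptor substrate gene Irs2 (0.88). Nr4a2 was most like Fkbp9 (0.92), the integrin gene Itgb4 (0.89) and Ndrg1 (0.84). Without PFC1 the 10 genes most like the mean of the members were the same 10, led by Sik1 (0.95) and Fos (0.94). Of the 3 genes nearest to each member, 1 was shared for Egr1, Egr3 and Egr4 and 2 for Egr2, Nr4a1, Nr4a2 and Nr4a3. Fos then remained first for Egr1 and Egr2, Trib1 for Nr4a1, Nab2 for Nr4a3 and Tet3 for Egr3, while Vps37b came first for Egr4 and Kndc1 for Nr4a2. These likenesses are descriptions of the same 24 libraries.

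**Figure D5:**
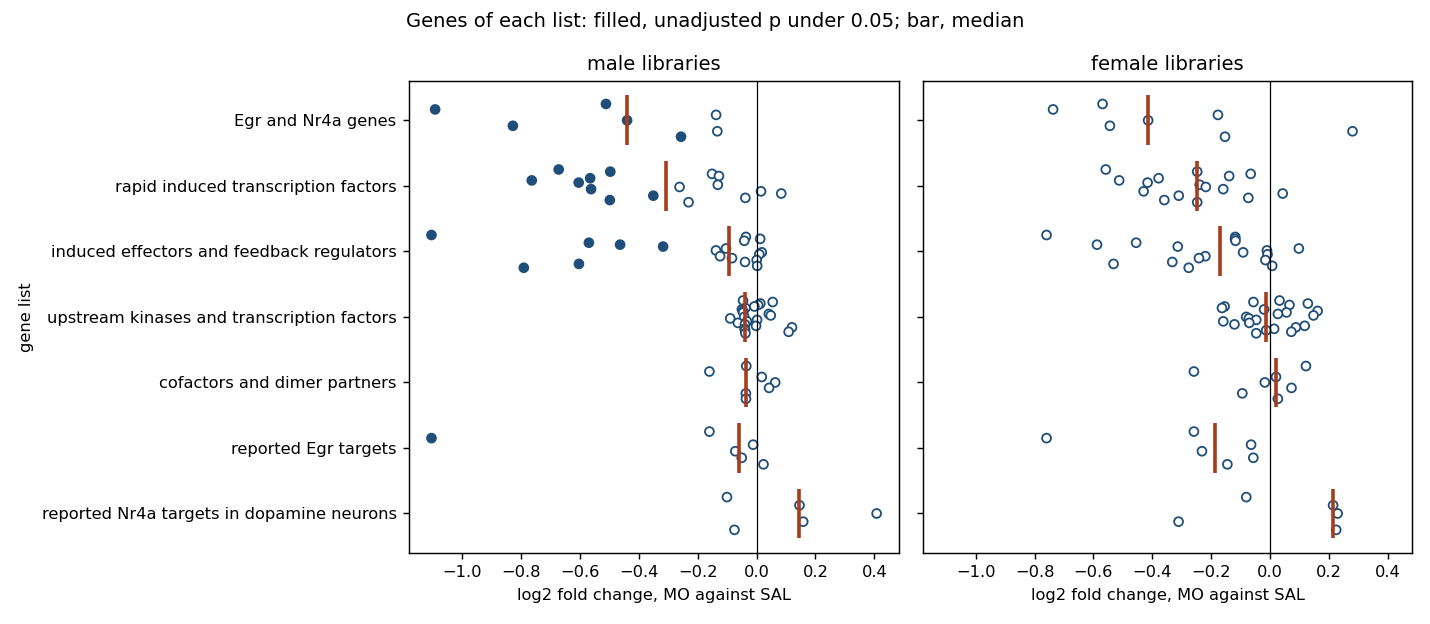
Log2 fold change of MO against SAL (x axis) for each gene of the Egr and Nr4a families and of 6 related lists, in males and in females, filled where the unadjusted p is under 0.05, with the median of each list as a bar. In males the filled points are members and genes of the 2 induced lists, Arc being counted in 2 lists, and no point is filled in females.

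Related genes were then read from the same fits, as lists of the steps around these factors. Of 16 rapidly induced transcription factor genes, 8 were lower in male MO offspring at an unadjusted p under 0.05 and 0 higher, where 1.52% of all genes were lower and 1.33% higher. The list had a median log2 fold change of -0.31. Fos (-0.67, SE 0.21), the activity-dependent factor Npas4 (-0.76, SE 0.24) and Ier2 (-0.60, SE 0.21) had the smallest p-values, and Junb, Sik1, Btg2, Csrnp1 and Fosb also passed. Of 18 induced effectors and feedback regulators, 6 were lower and 0 higher, with a median of -0.09. They were Arc, which encodes a protein that acts at synapses (-1.10, SE 0.35), Trib1 (-0.60, SE 0.20), the MAP kinase phosphatase gene Dusp1 (-0.57, SE 0.20), Cyr61, Dusp5 and Dusp6. Homer1 (-0.04), Nptx2 (0.01) and Bdnf (-0.04) of the same list did not pass. Many genes of these 2 lists varied with the members across libraries. Of those with a mean of at least 50, 13 of 14 rapidly induced factors had r above 0.5 with the mean of the members. Among the effectors 9 of 17 did, and among all genes 6.98%. Such counts are therefore not separate observations.

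The regulators upstream of these genes did not pass in either direction. Of 23 kinases and transcription factors that include Srf, the Elk genes, Creb1, Crtc1 and the Mef2 genes, 0 were lower and 0 higher in males, at a median of -0.04. Of 7 cofactors and dimer partners (Nab and Rxr genes, Hdac3 and Ncor1), 0 passed, and Nab2 was at -0.16 (SE 0.13). Of 6 reported Egr targets, 1 (Arc) was lower, and of 5 reported Nr4a targets in dopamine neurons (Th, Slc18a2, Slc6a3, Ret and Ddc), 0 passed. No gene of the 6 lists passed after adjustment over all genes in any comparison.

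In females 0 genes of the 6 lists passed, where 1.12% of all genes were lower and 1.81% higher. Estimates were below 0 for 15 of the 16 rapidly induced factors (median -0.25) and for 16 of the 18 effectors (median -0.17), where 49.5% of all genes were. With PFC1 left out they were below 0 for 13 of the 16 factors (median -0.14) and 12 of the 18 effectors (median -0.07). Without PFC1, 1 of the 6 reported Egr targets was lower, where 1.01% of all genes were. Over both sexes, where 2.21% of all genes were lower (1.77% without PFC1), 7 of 16 rapidly induced factors were lower (5 without PFC1). They were led by Ier2 (-0.51, SE 0.17), Fos (-0.61, SE 0.22) and Npas4 (-0.64, SE 0.23). Of the 18 effectors 6 were lower (5 without PFC1), led by Trib1 (-0.57, SE 0.19) and Arc (-0.93, SE 0.32). Of the reported Egr targets 2 were lower over both sexes, Arc and the synapsin gene Syn1 (-0.15, SE 0.06). The upstream list, the cofactors and the Nr4a targets had 0 in either direction over both sexes.

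Markers of other cell types were read beside these results. Over both sexes, where 2.51% of all genes were higher, 4 of 5 erythroid markers (Hba-a1, Hba-a2, Hbb-bt and Alas2, log2 fold changes 0.58 to 0.63), 4 of 5 neutrophil markers (Ltf, 1.24, S100a8, 1.42, S100a9, 1.40, and Ngp) and 1 of 4 endothelial markers (Pecam1, 0.21) were higher in MO. The other erythroid marker, Hbb-bs, had an estimate below 0. Without PFC1 the counts of higher markers in these lists were 4, 4 and 0. These were the lists that passed in any number, and 0 genes passed over both sexes in the lists for excitatory neurons, upper and deep layers, claustrum and layer 6b, inhibitory neurons, striatal neurons, astrocytes, oligodendrocytes and microglia. Neutrophil markers summed to 1.14 to 36.7 normalized counts in male SAL, 4.73 to 44.5 in male MO, 2.05 to 16.3 in female SAL and 9.86 to 373 in female MO libraries, with Camp at 0 in every male SAL library. Erythroid markers summed to 4218 to 12069, 5518 to 13084, 2833 to 10584 and 4608 to 18869 in the same groups. In females, where 1.81% of all genes were higher, 3 of 5 neutrophil markers (Ltf, S100a8 and S100a9) and 2 of 4 endothelial ones (Pecam1 and Flt1) were higher. Without PFC1 these numbers were 3 and 1. In males Hba-a1 was higher (0.67, SE 0.29), Hbb-bs was lower (-3.10, SE 1.14), and 0 genes passed in the other 11 marker lists. The part of blood cells, of the dissection or of the time and handling before death in the values of Egr and Nr4a genes was not tested, and in bulk tissue fewer cells that express a gene and less RNA per cell cannot be told apart.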

How the data were processed

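The authors aligned stranded reads to mm10 (RefSeq) with STAR, quantified genes with Salmon and normalized with DESeq2, separately for each sex. The deposited unit is a signal (counts that the authors had scaled between libraries, not whole reads), so tests on raw counts were not run. Members and gene lists were chosen with earlier results of these data known. Values were used as log2(value + 1) for genes summing to at least 10 in the libraries compared. MO was compared with SAL within sex, over both sexes with sex as a term, and between the sexes, using limma 3.58.1 in R 4.3.3 (empirical Bayes with a trend, Benjamini-Hochberg adjustment over all genes tested), which was tested on simulated data. Two-sided exact permutation tests of single genes used all 924 relabellings of 6 against 6 libraries, or all combinations within sex. Correlations used 100000 permutations within groups. Genes named were all 7 members, up to 3 genes per list with the smallest unadjusted p, and the nearest neighbours by r (10 for the mean, 3 for each member). A further gene of the cofactor list is not reported here. Other list genes were named after their values were seen. Libraries are separate offspring, and p-values measure the spread between them. Figures were drawn with matplotlib 3.10.9.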

Additional observations from a re-analysis of the deposited data

Results flagged for a closer look

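Of 28 groups of member values, 2 held a library farther from its neighbours than Dixon's 95% limit allows, where chance alone flags about 1 in 20 groups. Egr1 in the female SAL library PFC6 was 4418 normalized counts, and the next lowest SAL library held 7109. Nr4a2 in the female MO library PFC1 was 674 normalized counts, and the next highest held 257.

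Of 72 groups of summed list levels, 9 held such a library. PFC1 was the highest female MO library for astrocyte (31451), microglia (8939), neutrophil (373) and striatal projection neuron markers (9813 normalized counts). PFC6 was the lowest female SAL library for the rapidly induced transcription factors (6056) and the reported Egr targets (24215). The female SAL library PFC24 was the highest of its group for cofactors and dimer partners (6778). In male SAL, PFC16 was the highest for striatal markers (8462) and PFC18 for neutrophil markers (36.7). The low early gene values of PFC6 and those of PFC1 stood with different marker levels, and their cause was not tested.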

How the results depend on the processing

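No paired analysis was possible because replicate names are not shared between groups. The number of members past an unadjusted p of 0.05 lay between 4 and 6 in males, 0 and 2 in females, 3 and 5 over both sexes and 0 and 0 for the difference between the sexes when single libraries were left out. The 2 in females came without the SAL library PFC6. With a term for the suffix combined the female number was 1 (3.77% of all genes passed). It was 1 within the libraries with the suffix (4.73%) and 1 within those without (10.5%). The male number was 3 within those without (8.25%). Member medians of MO against SAL stayed below 0 in every setting, from -0.54 to -0.30 in males and from -0.59 to -0.15 in females when 1 library was left out. Of 532 member fold changes under other settings, 496 kept their direction and side of the threshold, 13 lost the threshold, 12 gained it and 11 changed sign, all 11 for values that had not passed. Nr4a3 in females was 0.080 with sample weights, between -0.25 and 0.15 with 1 library left out (0.15 without PFC1) and 0.17 within libraries without the suffix. Nr4a2 in females was between -0.056 and 0.47 with 1 library left out (-0.056 without PFC1) and -0.069 within libraries without the suffix. In males it was 0.081 within libraries without the suffix. Over both sexes it was -0.088 with sample weights and between -0.096 and 0.15 with 1 library left out, below 0 without PFC1 or PFC22. Within libraries without the suffix, female Egr2 was 0.14 and female Egr4 was 0.13. Correlated pairs numbered 9 to 12 in males and 9 to 14 in females when 1 library was left out. They numbered 9 in females without PFC1 or without PFC5, and 8 within female libraries with the suffix. Without the 2 farthest libraries they numbered 3 in males and 4 in females. There, r of Nr4a2 in females turned positive with Egr1 (0.25), Egr2 (0.066), Egr3 (0.078), Nr4a1 (0.45) and Nr4a3 (0.62). Without PFC1 the number of lower reported Egr targets in females was 1, where 1.01% of all genes were lower. The causes were not tested. In males Egr1, Egr2 and Nr4a1 passed in all 22 settings, Egr4 in 21 and Nr4a3 in 12. Comparisons within libraries of 1 kind, and lists, likenesses, ranges and permutation tests without PFC1, were added after the data had been seen.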

Other observations

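Each member was also set against the mean profile of each marker list over the 12 libraries of a table, after the group means were removed, as a description with libraries shared by both profiles. Among the marker lists, claustrum and layer 6b, of which Nr4a2 is itself a marker in the literature but not a gene of the list used, gave r of 0.21 with Nr4a2 in males and 0.70 in females, and 0.26 in females without PFC1. For deep cortical layers r with Nr4a2 was 0.51 in males, -0.37 in females and 0.79 in females without PFC1. For oligodendrocyte markers it was 0.67 in males, 0.80 in females and 0.64 in females without PFC1. Microglia markers were close to this, at 0.64, 0.75 and 0.53 in the same order. For excitatory neuron markers r with Nr4a2 was -0.62, -0.73 and -0.07.

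For striatal projection neuron markers r with Nr4a2 was 0.23 in males, 0.83 in females and 0.47 in females without PFC1. With the 6 other members r was negative in both tables. In males it ran from -0.65 for Egr4 to -0.28 for Nr4a3, and in females from -0.84 for Egr3 to -0.45 for Nr4a1. Without PFC1, over the 9 list genes that then had a mean of at least 10, the female values ran from -0.55 for Egr3 to 0.00 for Nr4a1. Claustrum and layer 6b markers also had negative r with these 6 members, from -0.70 to -0.50 in males, from -0.71 to -0.42 in females and from -0.60 to -0.08 in females without PFC1. In females r was also negative for astrocyte (-0.82 to -0.41), endothelium (-0.79 to -0.49), microglia (-0.73 to -0.33) and oligodendrocyte markers (-0.69 to -0.29). In males these lists gave both signs. In females excitatory (0.35 to 0.75) and inhibitory neuron markers (0.52 to 0.82) had positive r. Negative r in females was thus not particular to striatal or claustrum markers. Without PFC1 the female endothelium values were -0.61 to -0.13 and the excitatory ones -0.33 to -0.13.

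Of the erythroid markers 4 of 5 were higher in MO over both sexes, and Hbb-bs had an estimate below 0. Their mean profile had r with these 6 members from -0.78 (Nr4a1) to -0.46 (Egr3) in females. Without PFC1 it ran from -0.77 (Nr4a3) to -0.24 (Egr3), and in males from -0.25 to 0.07. In females 3 neutrophil markers had a mean of at least 10, with r from -0.92 (Nr4a3) to -0.67 (Nr4a1). Fewer than 3 reached that mean without PFC1, so that no value was computed. Neutrophil markers summed to 373 normalized counts in PFC1 and to 2.05 to 49.0 in the other female libraries. PFC1 was also the lowest library for 5 members. These r therefore describe that library and cannot show a relation across the others. The part of these cells in the levels of the members was not tested.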
